A study of Mus musculus with 9 samples.

Results

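The 10 genes described here are p53 targets and growth arrest genes, Cdkn1a, Mdm2, Ccng1, Gdf15, Phlda3, Bax, Trp53inp1, Btg2, Gadd45a and Sesn2, taken by symbol from the 55401 genes of the count table. All 10 were among the 12660 genes with enough counts to be tested. They were measured in RNA from the left liver lobe of 9 male mice by QuantSeq, which sequences the 3' ends of polyadenylated transcripts. The mice formed 3 groups of 3. Chow mice (replicates 7, 8 and 9) ate chow and received neither streptozotocin nor Atglistatin. STAM mice (replicates 1, 2 and 3), modelling fatty liver disease on top of diabetes, were injected under the skin with 200 µg of streptozotocin, a toxin of insulin-producing cells, at 2 days of age. From 4 weeks of age they ate a high-fat diet for 4 weeks. STAM + Atglistatin mice (replicates 4, 5 and 6) had the same injection and the same diet supplemented with Atglistatin, which inhibits the lipase ATGL. No group had Atglistatin without STAM, and streptozotocin and the high-fat diet were always given together, so the effects of those cannot be told apart.

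The transcription factor p53 is held low by Mdm2, a ubiquitin ligase that marks it for degradation and is itself a p53 target. DNA damage and other stress stabilise p53, mostly through the protein and not its mRNA, and it then raises genes that stop the cell cycle, repair damage, alter metabolism or start apoptosis. In liver the best known of them is Cdkn1a (p21), an inhibitor of cyclin-dependent kinases that also responds to other factors, while Gdf15 and Sesn2 are targets of the stress factor ATF4 as well.

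Libraries held 7380365 to 9886129 counts, and the levels below are counts per 1e6 (CPM), scaled by edgeR's library sizes. The summed CPM of 8 hepatocyte markers was 95052 to 107669 in chow, 51418 to 61467 in STAM and 72698 to 74040 in STAM + Atglistatin, with no marker at 0. Alb alone was 26580 to 31323 in STAM and 45066 to 46411 in STAM + Atglistatin. Between those groups 4 of the 8 markers were higher and 4 lower, with a median log2 fold change of -0.0048. Of them 1 rose and 2 fell (edgeR adjusted p under 0.05), as did 1.04% and 0.742% of all tested genes. In STAM against chow 7 of 8 were lower (median -0.54) and 4 fell, as did 1.99% of all tested genes. In STAM + Atglistatin against chow 8 of 8 were lower (median -0.55) and 6 fell, as did 1.97%. Ranges of the non-parenchymal lists overlapped between STAM and STAM + Atglistatin (7 resident macrophage genes 371 to 421 and 333 to 461 CPM; 8 recruited macrophage genes 89.7 to 111 and 96.3 to 148; 7 endothelial genes 251 to 287 and 282 to 352; 8 stellate and fibroblast genes 378 to 514 and 455 to 499). The same held for erythroid (643 to 746 and 462 to 789), cholangiocyte (33.6 to 37.1 and 29.3 to 37.8), lymphocyte (1.18 to 4.42 and 2.18 to 3.51), neutrophil (3.24 to 9.51 and 6.53 to 9.41) and adipocyte genes (0 to 0.240 and 0 to 3.01). Of these markers, Ly6g and Lep were at 0 in all 9 libraries, and Cd79a and Retn in 8. In whole liver, fewer cells of a type and less RNA per cell cannot be told apart, and the part of the change in the hepatocyte sum in the results was not tested.

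Promoter sequence was read from RefSeq (GRCm38.p6, 250 bases before to 50 after the start) for the 9 members that matched. It was searched for the p53 half-site, a decamer that reads the same in form on both strands. It occurred in the promoter of Cdkn1a, Mdm2, Ccng1, Bax and Gadd45a, 5 of 9 members (55.6%), against 803 of 9698 tested genes with a promoter in the table (8.28%). The members were chosen as p53 targets, which such sites help to define, so the higher share was likely in advance and tests nothing. Phlda3, Gdf15, Btg2 and Sesn2 had no match in the window. At the upstream start of Cdkn1a (window 29090729 to 29091028), 2 half-sites were separated by 12 bases, starting at -73 and -51 from that start. This arrangement (spacer of at most 13 bases) was found in 4 of the 9698 genes (0.0412%), taking any promoter of a gene. The search allowed no mismatch. The other Cdkn1a window (29093519 to 29093818) had 0 half-sites, and which start these livers use was not tested. A match is a description of the letters and not evidence of binding. Gadd45a also had a match and passed no test, and its stretch is not shown. Stretches are shown around the matches of Cdkn1a, Mdm2 and Ccng1, which passed in some comparison, and of Bax, which passed in none. Each is 5′ to 3′ on the gene's strand with the half-sites in capitals, for Cdkn1a chr17:29090851-29090992 (plus strand), Mdm2 chr10:117710880-117710999 (minus), Ccng1 chr11:40755407-40755526 (minus) and Bax chr7:45467035-45467148 (minus).
Cdkn1a: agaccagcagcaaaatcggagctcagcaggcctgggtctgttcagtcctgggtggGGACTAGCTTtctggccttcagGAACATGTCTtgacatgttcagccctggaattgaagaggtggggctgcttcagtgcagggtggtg
Mdm2: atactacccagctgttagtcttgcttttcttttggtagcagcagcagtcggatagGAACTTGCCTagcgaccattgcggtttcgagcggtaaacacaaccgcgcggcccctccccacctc
Ccng1: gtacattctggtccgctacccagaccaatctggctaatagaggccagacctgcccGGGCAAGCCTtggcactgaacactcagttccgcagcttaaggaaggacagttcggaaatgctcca
Bax: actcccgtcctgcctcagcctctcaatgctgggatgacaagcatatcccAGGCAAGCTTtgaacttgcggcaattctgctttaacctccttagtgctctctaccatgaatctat

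The first comparison, STAM + Atglistatin against STAM, addresses what the lipase inhibitor changed in livers that already had streptozotocin and the high-fat diet. Cdkn1a, Ccng1, Phlda3 and Trp53inp1 rose (edgeR adjusted p under 0.05), and no member fell (0 lower also at an unadjusted p under 0.05, by DESeq2 and by limma-voom, as in both other comparisons). That is 4 of 10 members, where 1.04% of all tested genes rose and 0.742% fell. The median log2 fold change of the 10 members was 0.67, beside -0.00071 over all tested genes. In 6 members (the same 4, Mdm2 and Bax) every STAM + Atglistatin library lay above every STAM library, which held for 8.58% of tested genes. The summed CPM of the 10 genes was 265 to 279 in STAM and 534 to 543 in STAM + Atglistatin.

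**Figure D1:**
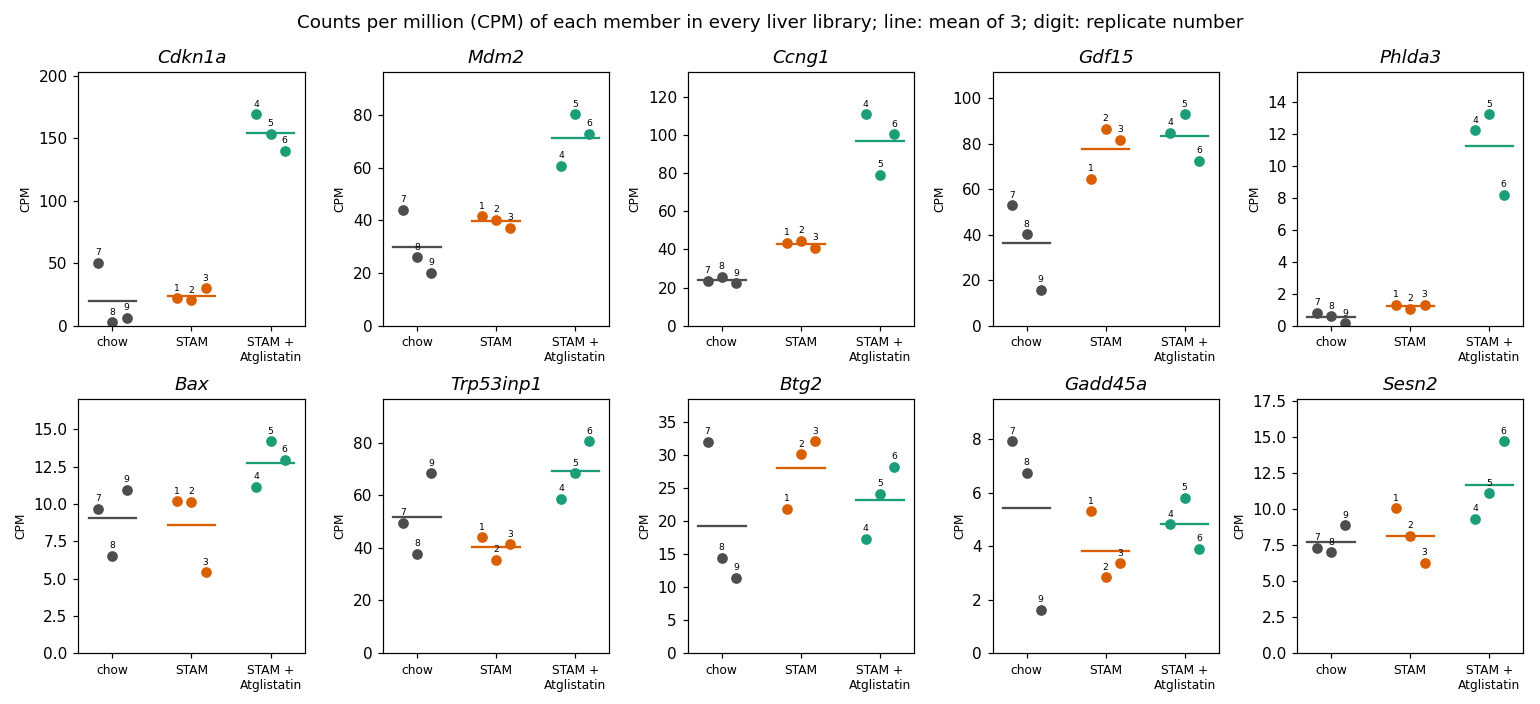
CPM (y axis, from 0, a separate scale per gene) of the 10 genes in each of the 9 libraries, with the group on the x axis, a digit for the replicate and a line for the mean of 3 mice. The STAM + Atglistatin points of Cdkn1a, Ccng1 and Phlda3 lie above all others, and chow replicate 7 lies above the other chow libraries for Cdkn1a and Btg2.

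Cdkn1a (chromosome 17, 29090976 to 29100727, plus strand, GRCm38) stood at 22.1, 20.4 and 30.04 CPM in STAM and 169, 154 and 139.9 CPM in STAM + Atglistatin. The lowest treated library was thus well above the highest STAM library. The means were 24.2 ± 5.13 and 154 ± 14.7 CPM (SD, n = 3), a log2 fold change of 2.67 ± 0.56 (SE; 6.38-fold, edgeR adjusted p = 0.0150). The size of this p depended on libraries outside the comparison, since the chow libraries, which varied widely for this gene, entered the same fit. It was 6.71e-10 when the 2 groups compared were fitted alone and 2.86e-09 without chow replicate 7. By DESeq2 over all 9 libraries it was 0.121, and it was 0.0508 to 0.121 without STAM + Atglistatin replicate 4 or 5 or any single STAM library. The log2 fold change was 2.67 by DESeq2 too.

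Phlda3 (chromosome 1, 135766119 to 135769136, plus strand), whose product keeps the kinase Akt from the membrane, had 12, 9 and 11 counts in STAM and 122, 128 and 76 in STAM + Atglistatin. These are 1.33, 1.06 and 1.32 CPM against 12.2, 13.3 and 8.22 CPM. The log2 fold change was 3.17 ± 0.46 (8.99-fold, edgeR adjusted p = 0.00054), the largest of the 10 members in this comparison. Phlda3 had few counts outside the treated group: without that group it did not reach the low-count filter.

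Ccng1 (chromosome 11, 40748552 to 40755311, minus strand) encodes cyclin G1, which brings a phosphatase to Mdm2. Its levels were 43.5, 44.4 and 40.7 CPM in STAM and 111, 79.3 and 100.3 CPM in STAM + Atglistatin. The group means of 42.9 ± 1.90 and 96.8 ± 16.1 CPM gave a log2 fold change of 1.18 ± 0.15 (2.26-fold, edgeR adjusted p = 0.00013). The calls of Ccng1 and Phlda3 here passed under all 15 other fits.

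Trp53inp1 (chromosome 4, 11156431 to 11174379, plus strand), a stress-induced cofactor of p53 in cell death and autophagy, was at 44.0, 35.5 and 41.3 CPM in STAM and 58.6, 68.3 and 80.4 CPM in STAM + Atglistatin. The groups did not overlap, and the log2 fold change was 0.78 ± 0.19 (edgeR adjusted p = 0.0442). That call was lost when any single STAM or STAM + Atglistatin library was left out (adjusted p = 0.0592 to 0.241), and with scaling by library totals (0.0506).

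Mdm2 (chromosome 10, 117688875 to 117710758, minus strand), the brake on p53, was at 41.6, 40.1 and 37.1 CPM in STAM and 60.6, 80.3 and 73.0 CPM in STAM + Atglistatin. The groups did not overlap, with a log2 fold change of 0.85 ± 0.21 and an edgeR adjusted p of 0.0519, just short of the threshold. It passed by DESeq2 (0.0140), by limma-voom (0.00522), with the 2 groups fitted alone (0.00137), without the low-count filter (0.00010) and without chow replicate 7 (0.00171) or 9 (0.0170).

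Gdf15, a secreted stress cytokine, was at 64.6, 86.6 and 81.6 CPM in STAM and 84.8, 92.9 and 72.3 CPM in STAM + Atglistatin. Those ranges overlapped (log2 fold change 0.10 ± 0.26, edgeR adjusted p = 0.952). Bax, the pore-forming protein of mitochondrial apoptosis, was at 10.2, 10.2 and 5.41 CPM against 11.1, 14.2 and 13.0 CPM, without overlap and without passing (0.57 ± 0.29, edgeR adjusted p = 0.551). Sesn2, a leucine-sensing inhibitor of mTORC1, was at 0.52 ± 0.28, Gadd45a, a growth arrest and DNA damage protein, at 0.33 ± 0.48 and Btg2, an antiproliferative partner of the CCR4-NOT complex, at -0.27 ± 0.30 on the log2 scale (edgeR adjusted p = 0.574, 0.905 and 0.851). For these 5 genes the difference was not detectable with 3 mice a group, and changes beyond the span of each estimate ± SE remain possible.

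**Figure D2:**
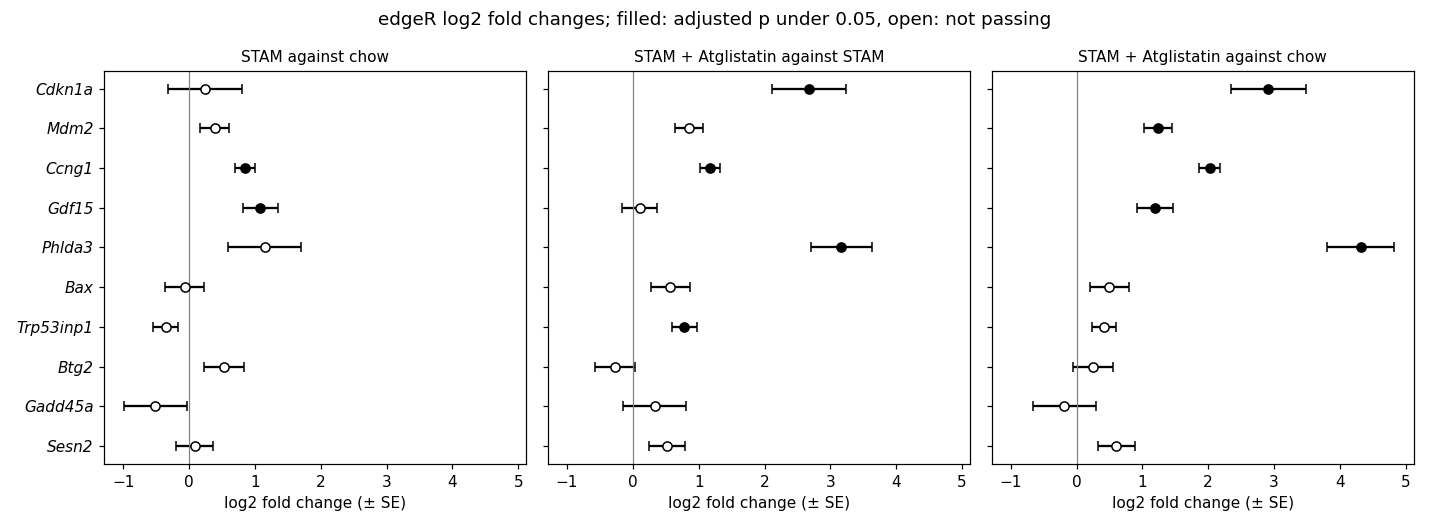
Log2 fold change from edgeR (x axis, bars ± SE) of each of the 10 genes (y axis) in the 3 comparisons, with filled points for an adjusted p under 0.05. The points of Cdkn1a, Ccng1 and Phlda3 are filled in both comparisons with STAM + Atglistatin, and Phlda3 reaches 4.32 against chow.

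The second comparison, STAM against chow, addresses the change with streptozotocin and the high-fat diet together. Ccng1 and Gdf15 rose and no member fell, 2 of 10, where 1.95% of all tested genes rose and 1.99% fell. The members' median log2 fold change was 0.32, beside -0.0014 over all tested genes. Ccng1, Gdf15 and Phlda3 had every STAM library above every chow library, as did 10.6% of tested genes. Chow replicate 7 bore on this comparison, and without it 5 members rose, Cdkn1a, Mdm2, Ccng1, Gdf15 and Btg2, where 2.68% of the genes then tested rose. That library was picked out because it was high for some of these same genes. Calls against chow made without it, here and below, therefore show its weight and are no support for a rise.

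Ccng1 was at 23.6, 25.8 and 22.2 CPM in chow, all below the 40.7 CPM of the lowest STAM library. The log2 fold change was 0.84 ± 0.15 (1.80-fold, edgeR adjusted p = 0.0027), and it passed in all 15 other fits. Gdf15 (chromosome 8, 70629393 to 70632456, minus strand) was at 52.9, 40.1 and 15.8 CPM in chow, with replicate 9 lower than the nearest other chow library by 2.54-fold. Against 77.6 ± 11.5 CPM in STAM, the chow mean of 36.3 ± 18.8 CPM gave a log2 fold change of 1.08 ± 0.27 (2.12-fold, edgeR adjusted p = 0.0291). This call was lost by DESeq2 (0.121), with the 2 groups alone (0.0696), and without STAM + Atglistatin replicate 5, chow replicate 8 or any single STAM library (0.0507 to 0.125).

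Cdkn1a was uneven among the chow mice, at 50.4 CPM (490 counts) in replicate 7, 2.89 CPM (24 counts) in replicate 8 and 6.35 CPM (43 counts) in replicate 9. Replicate 7 was 7.94-fold above the next chow library and above all 3 STAM libraries, while the other chow libraries were below all of STAM. With all libraries the log2 fold change was 0.24 ± 0.56 (edgeR adjusted p = 0.916), and it took the other sign without chow replicate 8 (-0.27) or 9 (-0.16). Without chow replicate 7 it was 2.42 (edgeR adjusted p = 2.15e-06), and limma-voom, which gives libraries unequal weights, found 1.62 (adjusted p = 0.0404). The data therefore give no single value for Cdkn1a in STAM against chow.

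Mdm2 and Btg2 had the same chow library on top. Mdm2 was at 44.1, 26.03 and 20.1 CPM in chow, and replicate 7 exceeded every STAM library. Its log2 fold change was 0.39 ± 0.22 (edgeR adjusted p = 0.443), or 0.78 without that library (adjusted p = 0.0112). Btg2 was at 32.01, 14.5 and 11.4 CPM in chow and 21.9, 30.1 and 32.1 CPM in STAM, with 0.52 ± 0.30 (edgeR adjusted p = 0.461), or 1.11 without replicate 7 (adjusted p = 0.00873). Replicate 7 was the highest chow library for 6 of 10 members (60%) and for 36.0% of all tested genes. It was also the highest chow library for 7 of the 10 cell marker lists and the lowest for hepatocyte genes (95052 CPM, against 106112 and 107669). It held 176 CPM of recruited macrophage genes (80.0 and 113 in the others), 721 of stellate and fibroblast genes (441 and 451) and 55.7 of cholangiocyte genes (27.7 and 29.1). Resident macrophage (380, against 295 and 371), erythroid (1000.02, against 783 and 690.5), neutrophil (7.51, against 4.34 and 2.96) and adipocyte genes (4.22, against 0 and 0.739) were highest there too. The part of these cells in the values of that library was not tested.

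Phlda3 had 8, 5 and 1 counts in chow, or 0.823, 0.603 and 0.148 CPM, below the STAM range with no overlap but without passing (1.15 ± 0.56, edgeR adjusted p = 0.355). Trp53inp1 was at 49.5, 37.7 and 68.3 CPM in chow, overlapping STAM (-0.36 ± 0.19, adjusted p = 0.417). Gadd45a was at 7.93, 6.75 and 1.63 CPM in chow and 5.31, 2.83 and 3.36 CPM in STAM, also overlapping (-0.51 ± 0.48, edgeR adjusted p = 0.714). Gadd45a overlaps E230016M11Rik on the other strand, and since the strand setting of the counting is not given in the sources used here, its reads are less certain. Bax and Sesn2 overlap Gm45808 and Gm12981 on the same strand, and Cdkn1a overlaps AC167363.2 on the other, each with 0 counts. How reads shared by overlapping genes were counted is not known for these either. Bax (-0.07 ± 0.30) and Sesn2 (0.08 ± 0.28) differed from chow by less than their standard errors, and the sign of both turned in at least 1 other fit.

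Against chow, the STAM + Atglistatin livers had 5 members higher, Cdkn1a, Mdm2, Ccng1, Gdf15 and Phlda3, and none lower, where 2.1% of all tested genes rose and 1.97% fell. The members' median was 0.89, beside -0.0041 over all tested genes. In 7 members (these 5, Bax and Sesn2) the groups did not overlap, which held for 9.6% of tested genes. This comparison shares its libraries with the other 2 and is no separate evidence for them. The log2 fold changes were 2.92 ± 0.57 for Cdkn1a (7.54-fold, edgeR adjusted p = 0.0049), 2.02 ± 0.15 for Ccng1 (4.06-fold, 2.8e-07) and 4.32 ± 0.51 for Phlda3 (19.9-fold, 3.7e-05). Phlda3 had only 8, 5 and 1 counts in chow and reached the low-count filter only through the STAM + Atglistatin libraries. The size of its fold change therefore rests on chow values near the floor. Mdm2 rose by 1.24 ± 0.22 (2.35-fold, edgeR adjusted p = 0.0021) and Gdf15 by 1.19 ± 0.27 (2.28-fold, adjusted p = 0.0162). Gdf15 lost its call by DESeq2 (0.0717) and without STAM + Atglistatin replicate 4 (0.0674) or 5 (0.0913), while the other 4 passed in all 15 other fits. Without chow replicate 7 the value for Cdkn1a was 5.09.

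The order of the group means was STAM + Atglistatin, STAM, chow in 6 of the 10 genes, but neighbours in that order differed beyond the test in both steps only for Ccng1. Bax and Trp53inp1 had their lowest mean in STAM (8.58 ± 2.75 and 40.3 ± 4.33 CPM). Btg2 was highest in STAM (28.03 ± 5.40 CPM) and Gadd45a in chow (5.43 ± 3.35 CPM), with overlap of all 3 groups in both genes. A STAM + Atglistatin library held the highest value of the 9 for 8 members. The share over all tested genes was not counted for this or for the order of the means, so both only describe the 10 genes.

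In the authors' deposited table, Mdm2, Ccng1, Phlda3 and Trp53inp1 had an adjusted p under 0.05 for STAM + Atglistatin against STAM, with 0.0117 for Mdm2 and 0.0620 for Cdkn1a. For STAM + Atglistatin against chow, the authors' deposited table had Cdkn1a (0.0222), Mdm2, Ccng1 and Phlda3 under 0.05. For chow against STAM the authors' deposited table had Ccng1 alone among the 10. The edgeR fit and that table thus differ on Cdkn1a and Mdm2 in the first case and on Gdf15 in the others. The share of all genes under 0.05 in the authors' values was not counted, so these calls stand without a background.

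Other genes of the pathway were read from lists of p53 regulators, other p53 targets, other growth arrest genes, ATF4 and integrated stress response genes, BCL2 family and apoptosis effectors, proliferation genes and immediate early genes. Trp53, which encodes p53 itself, was low in all 9 libraries, at 5.76, 3.13 and 3.25 CPM in chow, 4.20, 3.19 and 3.36 in STAM and 2.51, 2.38 and 3.46 in STAM + Atglistatin. The groups overlapped and no comparison passed (log2 fold change -0.37 ± 0.45 against STAM, edgeR adjusted p = 0.879). Mdm4, a relative of Mdm2 that blocks p53, was at -0.04 ± 0.22 in the same comparison (edgeR adjusted p = 0.982). Of 9 tested p53 regulators, 0 passed in any comparison by edgeR, DESeq2 or limma-voom. At an unadjusted edgeR p under 0.05, 916 of all 12660 tested genes were higher and 925 lower in STAM against chow. The counts were 645 and 640 in STAM + Atglistatin against STAM, and 946 and 932 in STAM + Atglistatin against chow. They are the background for the unadjusted counts of every list below. Of the p53 regulators, 0 were higher and 2 lower in STAM against chow. In STAM + Atglistatin against STAM 1 was higher and 0 lower, and against chow 1 of each. The smallest p of that list belonged to Ppm1d, a phosphatase that turns p53 off, at 6.28, 7.35 and 5.91 CPM in chow, 3.10, 2.48 and 3.97 in STAM and 7.73, 5.49 and 4.43 in STAM + Atglistatin (-1.03 ± 0.37, adjusted p = 0.163, for STAM against chow and 0.89 ± 0.37, adjusted p = 0.386, for STAM + Atglistatin against STAM).

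Among 27 tested other p53 targets, 1 rose in STAM against chow, 2 rose and 1 fell in STAM + Atglistatin against STAM, and 6 rose in STAM + Atglistatin against chow, with medians of 0.17, 0.24 and 0.42. Over all tested genes, 1.95% rose in the first comparison, 1.04% rose and 0.742% fell in the second and 2.1% rose in the third. Without chow replicate 7, 28 of the list were tested. In STAM against chow 3 then rose (Zmat3, Tnfrsf10b and Plk3), where 2.68% of the genes then tested rose. Tnfrsf10b had 24, 0 and 0 counts in chow, 15, 8 and 3 in STAM and 35, 78 and 45 in STAM + Atglistatin. Its call in STAM against chow rests on leaving out the only chow library with counts, and on STAM values near the floor. In STAM + Atglistatin against STAM 3 rose and 2 fell, and in STAM + Atglistatin against chow 10 rose. The shares over all genes in that fit were not counted for these comparisons. Ephx1, the microsomal epoxide hydrolase, had means of 250 (chow), 317 (STAM) and 527 CPM (STAM + Atglistatin), and rose by 0.73 ± 0.15 with Atglistatin (edgeR adjusted p = 0.0150) and by 1.08 ± 0.16 against chow (0.00032). Rps27l, a ribosomal protein relative, rose with Atglistatin by 0.58 ± 0.12 (edgeR adjusted p = 0.0183). Plk3, a stress-response kinase, went the other way, from 18.5, 24.7 and 35.6 CPM in STAM to 10.2, 12.2 and 12.8 CPM with Atglistatin (-1.16 ± 0.26, edgeR adjusted p = 0.0243).

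Those 3 calls of Ephx1, Rps27l and Plk3 against STAM were each lost without certain single libraries. For Ephx1 these were STAM + Atglistatin replicates 4 and 5 and STAM replicates 1 and 2 (adjusted p = 0.0856 to 0.138). For Rps27l they were STAM + Atglistatin replicates 4 and 6 and STAM replicates 1 and 2 (0.0508 to 0.141), and for Plk3 every STAM + Atglistatin library and STAM replicates 2 and 3 (0.0525 to 0.191).

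Zmat3, an RNA-binding protein, had 10.9, 8.20 and 9.31 CPM in chow, 16.7, 17.0 and 16.0 CPM in STAM and 24.3, 21.97 and 22.8 CPM in STAM + Atglistatin. The 3 groups did not overlap. It rose in STAM against chow by 0.80 ± 0.20 (edgeR adjusted p = 0.0289) and in STAM + Atglistatin against chow by 1.28 ± 0.20 (0.00073), with 0.47 ± 0.19 between (adjusted p = 0.361). The first of these calls was lost with the 2 groups alone and without chow replicate 8 or 9 or any STAM library (0.0585 to 0.137). Eda2r, the ectodysplasin A2 receptor, had 13, 1 and 6 counts in chow, 35, 15 and 15 in STAM and 69, 76 and 95 in STAM + Atglistatin, a log2 fold change of 3.37 ± 0.59 against chow (edgeR adjusted p = 0.0022).

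**Figure D3:**
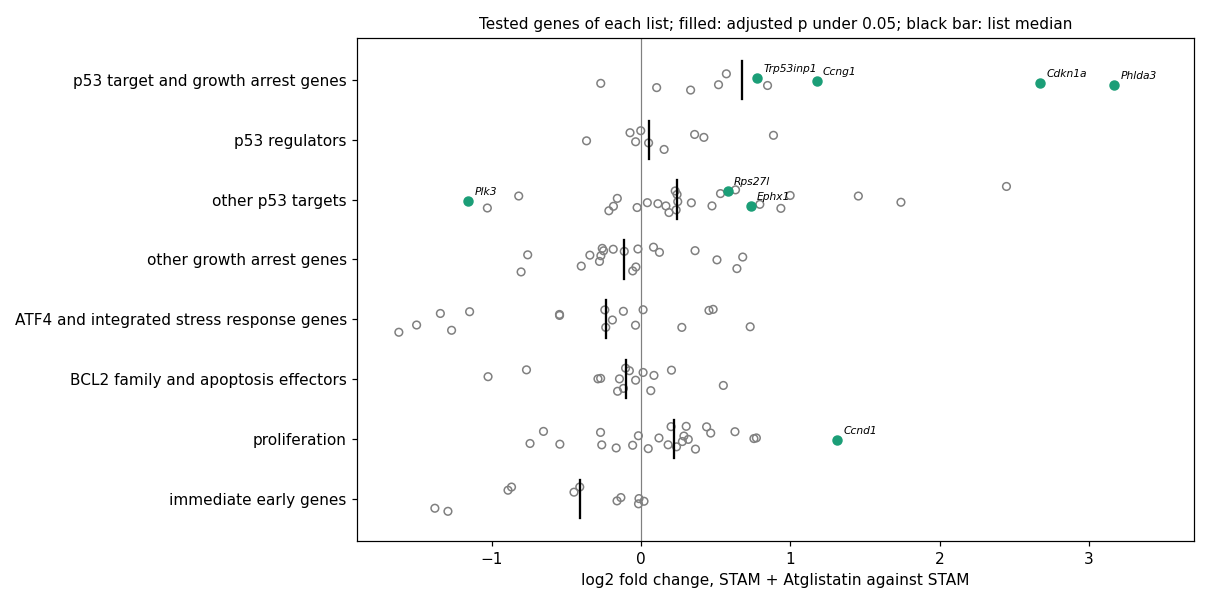
Log2 fold change of STAM + Atglistatin against STAM (x axis) for every tested gene of 8 lists (y axis, points spread at random within a row), with filled, named points for an edgeR adjusted p under 0.05 and a black bar for the list median. The bar of the 10 genes described here is at 0.67, that of the other p53 targets at 0.24 and that of the immediate early genes at -0.41.

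Growth arrest genes outside the 10, such as Tob1 and Gas1, did not pass. Of 19 tested, 0 passed in any of the 3 comparisons by edgeR, DESeq2 or limma-voom, with 0 higher and 1, 2 and 3 lower at an unadjusted edgeR p under 0.05. Tob1, an antiproliferative relative of Btg2, had the smallest p in STAM against chow (-0.48 ± 0.20, edgeR adjusted p = 0.237). Gas1, a membrane protein raised in arrested cells, had it in STAM + Atglistatin against STAM (-0.76 ± 0.32, adjusted p = 0.392), and passed as lower against chow only without chow replicate 7 (-1.06, adjusted p = 0.0346). In both comparisons with STAM + Atglistatin, 0 of 15 BCL2 family and apoptosis genes passed by edgeR, DESeq2 or limma-voom, with 1 higher and 0 lower against STAM and 0 higher and 2 lower against chow at an unadjusted edgeR p under 0.05.

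Gdf15 and Sesn2 are also read as ATF4 targets. Of 17 other tested genes of the ATF4 and integrated stress response list, 0 passed in either comparison of STAM by edgeR and by limma-voom, and DESeq2 had 1 higher in STAM against chow. At an unadjusted edgeR p under 0.05, 2 were higher and 2 lower in STAM against chow, and 0 higher and 1 lower with Atglistatin. Without chow replicate 7, 2 (Atf3 and Chac1) rose in STAM against chow and 1 (Trib3) fell with Atglistatin, named after their values were seen. In that fit 2.68% of the genes tested rose in STAM against chow, and the share that fell with Atglistatin was not counted. Against chow, Vldlr, a lipoprotein receptor, rose in STAM + Atglistatin by 1.77 ± 0.47 (edgeR adjusted p = 0.0426), a call that held in 5 of 15 other fits and was lost without any single library but chow replicate 7 (0.0541 to 0.164 over all fits that lost it). The list's medians were -0.22, -0.24 and -0.54 in the order STAM against chow, STAM + Atglistatin against STAM, and STAM + Atglistatin against chow.

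Among 24 tested proliferation genes, Ccnd1 rose with Atglistatin and no other passed in that comparison. Ccnd1 encodes cyclin D1, a partner of the kinases that p21 binds, and was at 94.0, 102 and 71.1 CPM in STAM and 228, 274 and 162 CPM in STAM + Atglistatin (1.31 ± 0.23, edgeR adjusted p = 0.0030, passing in all 15 other fits). It was at 206, 106 and 114 CPM in chow, where replicate 7 again was highest. In STAM against chow 0 passed by edgeR, DESeq2 or limma-voom (1 higher and 1 lower, unadjusted). In STAM + Atglistatin against chow 0 passed by edgeR and DESeq2, and 1 (Ccnd1) rose by limma-voom. Unadjusted, 5 were higher there by edgeR, as were 946 of all 12660 tested genes. Without chow replicate 7, 1 (Cdc20) and 4 (Cdc20, Ccne2, Rrm1 and Ccnd1) rose in those comparisons with chow, named after their values were seen. In that fit 2.68% of the genes tested rose in STAM against chow, and the share for STAM + Atglistatin against chow was not counted. The other 24 genes of the list, without Ccnd1, summed to 229, 92.6 and 95.5 CPM in chow, 133, 152 and 139 CPM in STAM and 122, 192 and 176 CPM in STAM + Atglistatin. With Ccnd1 the sums were 435, 198 and 209.7 CPM in chow, 227, 254 and 210.3 CPM in STAM and 350.5, 466 and 338 CPM in STAM + Atglistatin. Which library came first or last depended on Ccnd1: without it chow replicate 7 had the highest sum of the 9 libraries and STAM + Atglistatin replicate 4, the library with the most Cdkn1a, the lowest of its group, and with it these were STAM + Atglistatin replicates 5 and 6. Chow replicate 7 had the highest sum in chow either way and the most Cdkn1a in chow, and whether the same cells hold both RNAs was not tested.

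**Figure D4:**
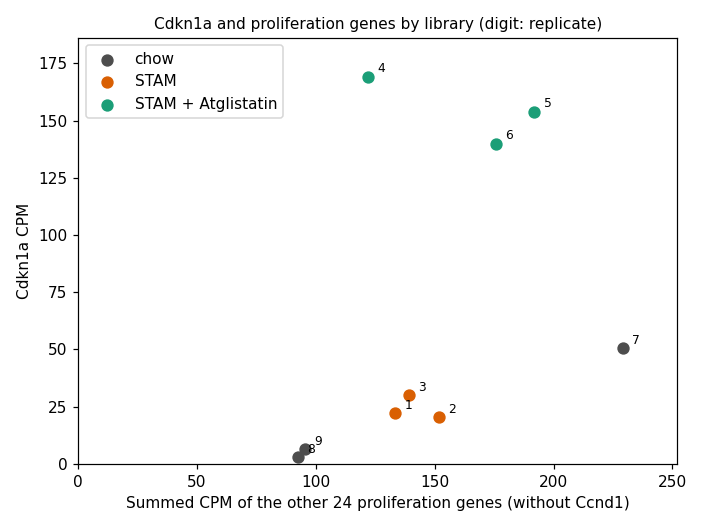
Cdkn1a (y axis, CPM) against the summed CPM of 24 proliferation genes without Ccnd1 (x axis) in each of the 9 libraries, coloured by group with a digit for the replicate. STAM + Atglistatin libraries lie at 139.9 to 169 CPM of Cdkn1a over sums of 122 to 192, STAM at 20.4 to 30.04 over 133 to 152, and chow replicate 7 at 50.4 and 229.

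Immediate early genes, which answer to acute stimulation and to tissue handling, did not rise with the 10 members. Of 11 tested, 0 passed in STAM against chow and in STAM + Atglistatin against STAM by edgeR and limma-voom. Unadjusted, 0 were higher and 1 lower in the former, and 0 higher and 4 lower in the latter. Over all 12660 tested genes, 925 and 640 were lower unadjusted in these comparisons. DESeq2 had 1 lower in STAM + Atglistatin against STAM, and so had edgeR without chow replicate 7, which was Junb. Zfp36 (-0.65 ± 0.16), Egr1 (-1.56 ± 0.40) and Junb (-0.86 ± 0.23) fell in STAM + Atglistatin against chow (edgeR adjusted p = 0.0305, 0.0316 and 0.0380), where 1.97% of all tested genes fell. These 3 calls were each lost without any single STAM + Atglistatin library and in other fits (adjusted p = 0.05002 to 0.187), among them Egr1 (0.186) and Junb (0.0645) without chow replicate 7. Egr1 in chow was 35.5, 12.5 and 12.7 CPM, with replicate 7 again on top.

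The genes whose pattern over the 9 libraries was most like that of Cdkn1a were ranked by the mean absolute difference of centred log2 CPM among 960 genes that varied enough. Phlda3 came first, at 0.57, followed by Gm45941 (0.60), Tnfrsf10b (0.60), Ddit4l (0.61) and Cyp2a22 (0.63). Ddit4l was at 0.844 to 4.63 CPM in chow, 1.89 to 5.42 in STAM and 13.1 to 22.6 in STAM + Atglistatin, and Tnfrsf10b at 0 to 2.47, 0.361 to 1.66 and 3.51 to 8.08. The ranking describes these libraries and carries no test.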

How the data were processed

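Liver RNA libraries (QuantSeq 3' mRNA kit, Illumina sequencing, per the labels' protocols) of 9 mice were read from 1 deposited table of raw counts per gene. Reads were aligned to GRCm38 with STAR, per the submitters' processing notes; its version and the counter are unknown. The same table holds the authors' log2 fold changes and adjusted p-values, quoted only where named. Groups follow the sample titles, because for chow and STAM the treatment field goes against both titles and design.

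The members and lists were chosen with earlier results of these data known. The 7 rows that name no gene (ribosomal RNA, 0.260 to 0.529% of counts) were left out. Genes passing edgeR's low-count filter (12660 of 20630 with a count) were fitted once over all 9 libraries with TMM scaling and edgeR 4.0.16 (quasi-likelihood, R 4.3.3), and p-values adjusted by Benjamini-Hochberg over all of them; "passed", "rose" and "fell" mean an adjusted p under 0.05. Every adjusted p without another tool's name is edgeR's. Alternatives used DESeq2 1.42.0, limma 3.58.1 (voom with sample weights), other scalings, no filter, the 2 groups alone, and each library left out. The code was tested on simulated counts. Named were all 10 members, Trp53, Mdm4, up to 3 passing genes per list and comparison with the smallest p, and, for lists with none, the gene with the smallest p in each comparison of STAM. CPM has no length scaling, so levels are not compared between genes. The precision is limited by 3 mice a group and by counting error in genes with few counts. The STAM against chow result of the BCL2 family and apoptosis list is not reported here.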

Additional observations from a re-analysis of the deposited data

How the results depend on the processing

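No paired analysis was possible because the groups share no replicate numbers. Members passing in STAM against chow numbered 2, and 1 by DESeq2, with the 2 groups compared only (Ccng1 in both) and among log2 changes of 1 or more in size (Gdf15). Leaving out 1 library gave 1 to 5 members in STAM against chow, 2 to 5 in STAM + Atglistatin against STAM (2, Ccng1 and Phlda3, without STAM + Atglistatin replicate 4 or 5 or any STAM library) and 4 to 5 in STAM + Atglistatin against chow. Over all genes, 499, 226 and 516 passed in the 3 comparisons, with 291 to 724, 131 to 332 and 309 to 757 when 1 library was left out, 230, 123 and 256 among log2 changes of 1 or more in size, and 392 in STAM + Atglistatin against STAM with no low-count filter. Scaling by library totals moved the share of calls that were higher from 49.5% to 62.9% in STAM against chow and from 51.6% to 66.1% in STAM + Atglistatin against chow.

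Among the 10 members, signs turned only for log2 fold changes that did not pass. In STAM against chow these were Bax (0.023 with library totals, 0.08 without chow replicate 9 and 0.17 without STAM replicate 3, in a range of -0.26 to 0.17 over left-out libraries), Cdkn1a (-0.27 and -0.16 without chow replicates 8 and 9, range to 2.42) and Sesn2 (-0.10 without STAM replicate 1, range to 0.24). In STAM + Atglistatin against STAM it was Gdf15 (-0.014 without STAM replicate 1, range to 0.20). In STAM + Atglistatin against chow they were Gadd45a (0.26 by limma-voom, 0.19 without chow replicate 7, range from -0.60) and Btg2 (-0.0080 without chow replicate 9, range to 0.84). The cause was not tested. Depth limits Phlda3 and Gadd45a most, with as few as 1 and 11 counts in a library.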
